A study of Homo sapiens with 9 samples.

Results

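The genes described here are 10 regulators that set the balance between epithelial and mesenchymal cell states, taken by gene symbol from the 58735 genes of an OVCAR4 count table. They comprise 5 transcription factors known as inducers of epithelial-mesenchymal transition (EMT), SNAI1, SNAI2, ZEB1, ZEB2 and TWIST1, and 5 genes known to maintain the epithelial state, the transcription factors OVOL1, OVOL2 and GRHL2 and the splicing regulators ESRP1 and ESRP2. OVCAR4 is an established human cell line of high-grade serous ovarian carcinoma. The cells were transduced with lentivirus carrying a pLKO.1 scramble shRNA (scr control) or 1 of 2 independent hairpins against MPZL3, a predicted cell adhesion molecule (shMPZL3 #1 and shMPZL3 #2), and all 3 groups were selected with puromycin before RNA was taken from the whole culture. Each group had 3 biological replicates, giving 9 poly-A RNA-seq libraries, and the question was how lowering MPZL3 alters expression of these genes. The hairpins lower the MPZL3 transcript and do not delete the gene, and both knockdown groups are compared with the same 3 scr control libraries.

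In EMT, epithelial cells loosen their junctions and take on migratory features. SNAI1, SNAI2, ZEB1, ZEB2 and TWIST1 bind E-box elements and repress epithelial genes, among them CDH1, which encodes E-cadherin. OVOL1, OVOL2 and GRHL2 oppose this programme, in part by repressing ZEB1, while ESRP1 and ESRP2 direct the epithelial splicing pattern of genes such as FGFR2 and CD44, and microRNAs of the miR-200 family bind the 3′ UTRs of ZEB1 and ZEB2 transcripts and lower their output.

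The libraries held 15040102 to 27835841 counts assigned to genes, and 16928 genes passed the filter on low counts. MPZL3 was 28.1 ± 1.87 CPM (counts scaled to library size with TMM factors; mean ± SD, n = 3) in scr control, against 6.24 ± 0.628 for shMPZL3 #1 and 15.2 ± 2.90 for shMPZL3 #2, so the transcript was lower with both hairpins (log2 fold changes of -2.17 and -0.89, edgeR adjusted p = 3.73e-07 and 0.000562). Of 10 markers fixed for serous ovarian carcinoma cells, 9 passed the filter, with EPCAM at 363 to 428 CPM and PAX8 at 224 to 300 CPM, while WT1 reached at most 13 counts in a library. Summed endothelial markers came to 8.86 to 11 CPM in scr control, 8.07 to 9.43 CPM for shMPZL3 #1 and 13.6 to 17 CPM for shMPZL3 #2, and summed leukocyte markers to 2 to 2.52, 2.09 to 3.04 and 2.81 to 4.74 CPM, so both sums were higher for shMPZL3 #2 than in scr control without overlap. Their part in the shMPZL3 #2 differences below was not tested. Summed mesothelial markers came to 130 to 134 CPM in scr control, 92.7 to 127 CPM for shMPZL3 #1 and 119 to 184 CPM for shMPZL3 #2. This sum was lower for shMPZL3 #1 than in scr control without overlap, and its part in the shMPZL3 #1 differences below was not tested. The counts are of bulk cultures, in which fewer cells of a type and less RNA per cell cannot be told apart.

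The epithelial keepers were all expressed and, among the inducers, SNAI1 was the 1 member with more than 4 counts in any library. Levels of different genes were compared as CPM per kilobase of gene length. In scr control ESRP1 was highest at 36.5 ± 1.49 CPM per kilobase (SD, n = 3), above 94% of protein-coding genes, followed by GRHL2 at 10.6 ± 0.0376, ESRP2 at 9.31 ± 0.319, OVOL2 at 6.05 ± 0.522, OVOL1 at 5.10 ± 0.421 and SNAI1 at 4.91 ± 0.312. Neighbours in this order did not overlap between libraries except OVOL1 and SNAI1, whose libraries spanned 4.62 to 5.42 and 4.6 to 5.22 CPM per kilobase. With shMPZL3 #1, SNAI1 stood at 8.92 ± 1.46 CPM per kilobase, overlapping GRHL2 at 9.43 ± 0.149 and above ESRP2 at 7.45 ± 0.357. With shMPZL3 #2, SNAI1 was again last of the 6 at 4.79 ± 0.933, overlapping OVOL1 at 5.02 ± 0.358, and ESRP2 at 10.0 ± 1.41 overlapped GRHL2 at 8.53 ± 0.377.

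**Figure D1:**
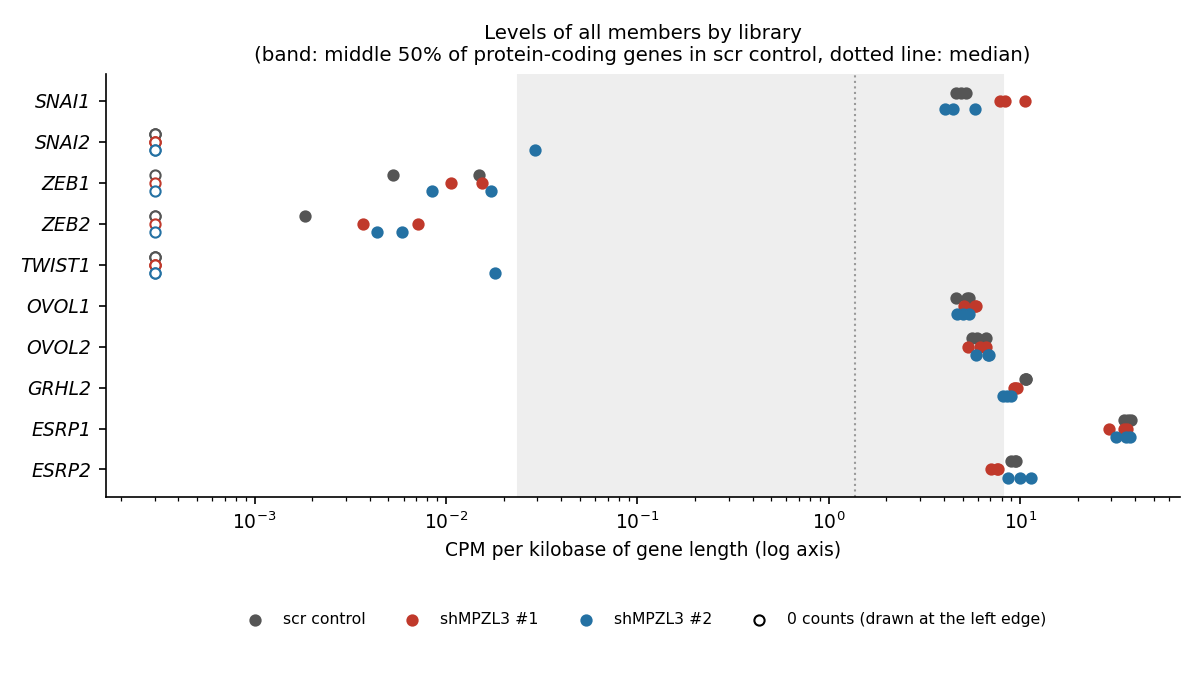
CPM per kilobase of gene length (log axis) of all 10 members in each of the 9 libraries, coloured by group. Open points at the left edge are libraries with 0 counts, the grey band spans the middle 50% of protein-coding genes in scr control and the dotted line is their median. ESRP1 lies near 36.5 CPM per kilobase in scr control, while the libraries of SNAI2, ZEB1, ZEB2 and TWIST1 lie at 0 or below 0.03.

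SNAI2, ZEB1, ZEB2 and TWIST1 did not pass the filter on low counts and are described by their counts. SNAI2 (ENSG00000019549), the Slug repressor, had 2 counts over the 9 libraries, both in shMPZL3 #2 replicate 1. TWIST1 (ENSG00000122691; chr7:19020991-19117672, minus strand, GRCh38), a basic helix-loop-helix factor, had 1 count. Neither gene had a count in scr control or with shMPZL3 #1, and 3 counts, the limit that a count of 0 allows, correspond to 0.11 to 0.201 CPM per library for counting error alone.

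ZEB1 (ENSG00000148516; chr10:31318495-31529814, plus strand), a zinc-finger repressor of CDH1 and of the miR-200 loci, had 2, 1 and 0 counts in scr control replicates 1 to 3, 3, 0 and 2 counts with shMPZL3 #1, and 0, 3 and 2 counts with shMPZL3 #2. ZEB2 (ENSG00000169554; chr2:144364364-144524583, minus strand), its paralog, had 0, 1 and 0 counts in scr control, 4, 0 and 2 counts with shMPZL3 #1, and 3, 0 and 3 counts with shMPZL3 #2. The groups overlapped for both genes. Exact two-sided permutation tests of the 6 knockdown against the 3 scr control libraries gave p = 0.714 for ZEB1 and p = 0.19 for ZEB2, where the smallest p this design allows is 0.0119. At this depth no difference was detectable for either gene. ZEB1-AS1, which lies antisense to ZEB1, had 118 counts over the 9 libraries against 13 for ZEB1, and in these non-directional libraries reads of the pair cannot be assigned by strand where they overlap.

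The miRNAs that target ZEB1 and ZEB2 are shown next because their seed matches recur in these members' 3′ UTRs. The mature sequences are RefSeq entries on GRCh38.p14, printed 5′ to 3′ with the seed, bases 2 to 8, in capitals. The miR-200 family falls into 2 groups by seed, hsa-miR-200b-3p, hsa-miR-200c-3p and hsa-miR-429 sharing the first and miR-200a-3p and miR-141-3p the second, while miR-34a-5p, which is known to target SNAI1, has a seed of its own.
hsa-miR-200b-3p: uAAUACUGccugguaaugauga
hsa-miR-200c-3p: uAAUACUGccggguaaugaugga
hsa-miR-429: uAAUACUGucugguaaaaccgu
hsa-miR-200a-3p: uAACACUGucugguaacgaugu
hsa-miR-141-3p: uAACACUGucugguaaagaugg
hsa-miR-34a-5p: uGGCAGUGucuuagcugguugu

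CAGTATT is the match to the first of these seeds, CAGTGTT to the second and CACTGCC to that of miR-34a-5p. The first occurrence in the 3′ UTR, in GENCODE 29 transcripts on GRCh38 and with the match in capitals, lies at chr10:31527623-31527643 and chr10:31528036-31528056 for ZEB1, at chr2:144389049-144389069 and chr2:144389233-144389253 for ZEB2 and, for miR-34a-5p, at chr20:49988132-49988152 for SNAI1.
ZEB1, CAGTATT match: tttatcttatCAGTATTatca
ZEB1, CAGTGTT match: tcatcagaatCAGTGTTtgtg
ZEB2, CAGTATT match: taccatacatCAGTATTttta
ZEB2, CAGTGTT match: aaattttgtaCAGTGTTaagg
SNAI1, CACTGCC match: acatccttctCACTGCCatgg

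The ZEB1 3′ UTR, 2549 bases long, held 6 matches to CAGTATT and 3 to CAGTGTT, and the ZEB2 3′ UTR, 5370 bases long, held 5 and 4. Only the transcript strand was searched. Over 18859 protein-coding genes with a 3′ UTR, whose median length was 810 bases, 14.2% held at least 1 CAGTATT and 15.9% at least 1 CAGTGTT. Among the other members, SNAI2 held 1 CAGTATT, GRHL2 held 1 CAGTGTT and ESRP1 held 1 of each, while SNAI1, OVOL1, OVOL2, TWIST1 and ESRP2 held neither. CACTGCC, the miR-34a-5p match, occurred once each in SNAI1, ZEB1, OVOL1 and OVOL2 and in 13.7% of all 3′ UTRs. ATGAAGG, the match to the seed of hsa-miR-205-5p, had 1 occurrence in ZEB1 and 0 in ZEB2, and was held by 9.83% of all 3′ UTRs. A match of letters is not a measured site of binding, and mature miRNAs are not captured by poly-A libraries.

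The miRNA loci themselves were read only as poly-A transcripts. MIR200CHG, the host gene of miR-200c and miR-141, was at 1.85 ± 0.48 CPM in scr control (SD, n = 3), against 2.19 ± 0.454 for shMPZL3 #1 and 2.49 ± 0.992 for shMPZL3 #2. Reads assigned to MIR200B were at 0.538 ± 0.242, 0.539 ± 0.0689 and 0.56 ± 0.33 CPM. None of the 5 host genes or loci of the list that were tested was called in the grouped comparison, and 1 was called with shMPZL3 #1, the miR-34a host gene MIR34AHG, named here after its values were seen. MIR34AHG was at 8.10 ± 1.55 CPM in scr control and 13.3 ± 0.345 with shMPZL3 #1, a log2 fold change of 0.72 (SE 0.186, edgeR quasi-likelihood adjusted p = 0.0071), and at 9.11 ± 2.00 CPM with shMPZL3 #2 (log2 fold change 0.18, adjusted p = 0.565). Leaving out scr control replicate 2 ended the call with shMPZL3 #1 (log2 fold change 0.56, adjusted p = 0.0524).

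The remaining 6 members, SNAI1, OVOL1, OVOL2, GRHL2, ESRP1 and ESRP2, entered the edgeR quasi-likelihood test, with a call at a Benjamini-Hochberg adjusted p under 0.05 over all 16928 genes. In the comparison of the 6 knockdown with the 3 scr control libraries, 0 of the 6 members were called, where 15.8% of all genes tested were called (9.36% higher and 6.4% lower). At an unadjusted p under 0.05 the count was 1 member, GRHL2, which edgeR did not call (adjusted p = 0.0702). DESeq2 called GRHL2 (adjusted p = 0.0443) among 3545 of all genes, while limma-voom called 0 members. With shMPZL3 #1, SNAI1 rose and ESRP2 fell, 2 of 6 members against 32% of all genes (16.8% higher and 15.3% lower). With shMPZL3 #2, GRHL2 fell, 1 of 6 members against 15.2% of all genes (9.36% higher and 5.8% lower). Directly between the hairpins, SNAI1 was lower and ESRP2 higher with shMPZL3 #2 than with shMPZL3 #1, 2 of 6 members against 15.1% of all genes (7.56% in each direction). The shares of members called are read against these backgrounds and rest on 6 genes. By library, 1 member did not overlap between the grouped knockdown and scr control, 3 between shMPZL3 #1 and scr control, 1 between shMPZL3 #2 and scr control and 3 between the hairpins, where the same held for 22.8%, 46.7%, 36.3% and 30% of all genes tested.

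**Figure D2:**
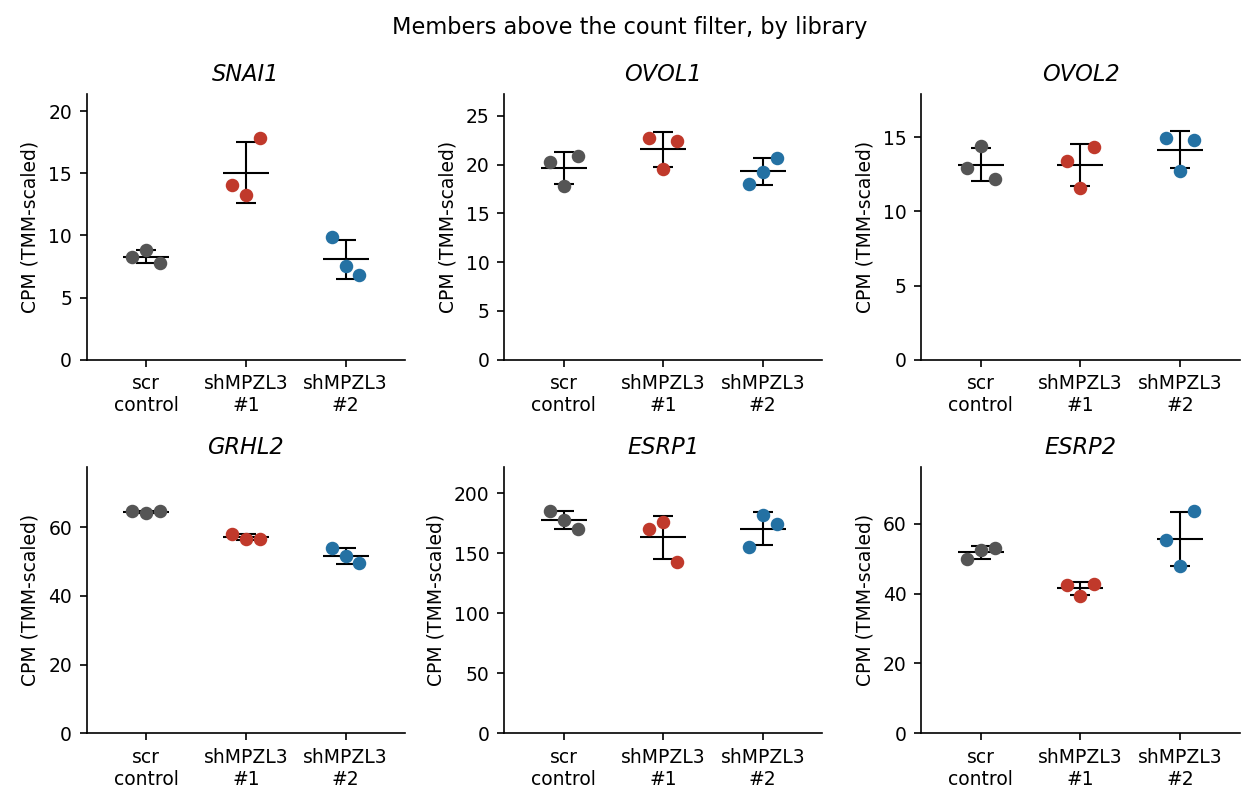
TMM-scaled CPM of the 6 members above the count filter, 1 point per library, with the group mean and SD as bars (n = 3 per group). SNAI1 stands higher in the 3 shMPZL3 #1 libraries (13.2 to 17.8 CPM), GRHL2 is lower in all 6 knockdown libraries than in scr control, and ESRP2 is lower with shMPZL3 #1 alone.

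SNAI1 (ENSG00000124216; chr20:49982999-49988886, plus strand) encodes Snail, a short-lived zinc-finger repressor. It was at 8.28, 8.81 and 7.76 CPM in the scr control libraries (128, 192 and 116 counts), 14, 13.2 and 17.8 CPM with shMPZL3 #1 (315, 274 and 388 counts), and 9.85, 7.55 and 6.84 CPM with shMPZL3 #2 (200, 153 and 187 counts). All 3 shMPZL3 #1 libraries lay above every other library, and the shMPZL3 #2 libraries spanned those of scr control. SNAI1 rose 1.81-fold with shMPZL3 #1 (95% confidence interval 1.40 to 2.34, log2 fold change 0.86, SE 0.175, edgeR adjusted p = 0.00135), and this call held under all 8 other settings and with each of the 9 libraries left out (log2 fold change 0.72 to 0.94). With shMPZL3 #2 the log2 fold change was -0.04, with an interval from -0.42 to 0.33 (adjusted p = 0.902). The difference between hairpins was itself past the threshold, at -0.90 on the log2 scale for shMPZL3 #2 minus shMPZL3 #1 (SE 0.173, adjusted p = 0.00218). Taken over all 6 knockdown libraries, the log2 fold change was 0.48 (interval -0.10 to 1.06, adjusted p = 0.247).

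Fibroblast markers, genes of a cell type in which EMT factors are active, were read beside SNAI1. The summed level of the 8 markers was 18.9 to 23.1 CPM in scr control, 43.4 to 63.1 CPM with shMPZL3 #1 and 34.7 to 38.1 CPM with shMPZL3 #2, so it was higher with both hairpins. Of the 8, 4 passed the filter, led by COL1A1 at up to 42.5 CPM, while DCN was at 0 in all 9 libraries and PDGFRA reached at most 2 counts (these 3 were named after their values were seen). The part of this signal in the SNAI1 difference was not tested.

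GRHL2 (ENSG00000083307) encodes a grainyhead-like factor that activates epithelial genes, CDH1 among them. It was at 64.7, 64.3 and 64.7 CPM in scr control, 58.2, 56.6 and 56.7 CPM with shMPZL3 #1, and 54.1, 51.6 and 49.5 CPM with shMPZL3 #2. The 3 groups did not overlap, and every shMPZL3 #2 library lay below every shMPZL3 #1 library. GRHL2 fell with shMPZL3 #2 to 0.801 of its scr control level (interval 0.701 to 0.915, log2 fold change -0.32, SE 0.091, edgeR adjusted p = 0.025). Leaving out a scr control library ended that call (adjusted p = 0.0815 for replicate 1, 0.0909 for replicate 2 and 0.0749 for replicate 3), as did leaving out shMPZL3 #2 replicate 3 (log2 fold change -0.27, adjusted p = 0.151) and applying no filter on low counts (0.0806). With shMPZL3 #1 the log2 fold change was -0.18 (interval -0.37 to 0.02, adjusted p = 0.155), and the difference between hairpins was -0.14 (interval -0.34 to 0.05, adjusted p = 0.313). Over all 6 knockdown libraries it was -0.25 (SE 0.087, adjusted p = 0.0702), lower in 6 of 6 libraries, with an exact permutation p of 0.0119, the smallest the design allows. DESeq2 gave an adjusted p of 0.0443 for the same comparison, and the mean of the hairpins in the 3-group fit gave 0.0258.

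ESRP2 (ENSG00000103067; chr16:68229111-68238102, minus strand) encodes an epithelial splicing regulator. It was at 49.8, 52.6 and 53.1 CPM in scr control, 42.3, 39.2 and 42.9 CPM with shMPZL3 #1, and 55.5, 47.9 and 63.6 CPM with shMPZL3 #2. The shMPZL3 #1 libraries lay below all others, while those of shMPZL3 #2 lay on both sides of scr control. ESRP2 fell to 0.800 of its scr control level with shMPZL3 #1 (interval 0.680 to 0.941, log2 fold change -0.32, SE 0.111, edgeR adjusted p = 0.0349). The call was lost without any 1 of the 3 scr control and 3 shMPZL3 #1 libraries, at adjusted p from 0.0576 without shMPZL3 #1 replicate 3 to 0.105 without scr control replicate 2. It was also lost with upper-quartile normalization (0.0556), with no filter on low counts (0.0546) and with at least 10 counts required in every library (0.0538). With shMPZL3 #2 the log2 fold change was 0.10 (interval -0.13 to 0.34, adjusted p = 0.573). The difference between hairpins was 0.43 on the log2 scale for shMPZL3 #2 minus shMPZL3 #1 (SE 0.11, adjusted p = 0.0153), and 0.31 with an adjusted p of 0.121 without shMPZL3 #2 replicate 3. ESRP2 overlaps NFATC3, which is transcribed from the opposite strand and had 3509 counts over the 9 libraries against 9240 for ESRP2, so reads in the shared stretch could not be told apart by strand.

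ESRP1 (ENSG00000104413), the paralog of ESRP2 and the most abundant member per length, was at 185, 178 and 170 CPM in scr control, 171, 176 and 143 CPM with shMPZL3 #1, and 155, 182 and 175 CPM with shMPZL3 #2. The groups overlapped. Its log2 fold change was -0.12 with shMPZL3 #1 (interval -0.34 to 0.09, edgeR adjusted p = 0.394) and -0.06 with shMPZL3 #2 (interval -0.28 to 0.16, adjusted p = 0.745). Over all 6 knockdown libraries the interval ran from -0.30 to 0.12, which bounds the difference at 0.811 to 1.09 of the scr control level.

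OVOL1 (ENSG00000172818; chr11:65787022-65797219, plus strand) and OVOL2 (ENSG00000125850; chr20:17956979-18059188, minus strand) encode zinc-finger repressors that restrain EMT in epithelia. OVOL1 was at 20.2, 17.8 and 20.9 CPM in scr control, 22.8, 19.5 and 22.4 CPM with shMPZL3 #1, and 18.0, 19.3 and 20.7 CPM with shMPZL3 #2. OVOL2 was at 12.9, 14.4 and 12.2 CPM in scr control, 13.4, 11.6 and 14.4 CPM with shMPZL3 #1, and 15.0, 12.7 and 14.8 CPM with shMPZL3 #2. All groups overlapped for both genes. The log2 fold change of OVOL1 was 0.14 with shMPZL3 #1 (interval -0.13 to 0.41, edgeR adjusted p = 0.438) and -0.02 with shMPZL3 #2 (interval -0.29 to 0.25, adjusted p = 0.942). For OVOL2 it was -0.0066 with shMPZL3 #1 (interval -0.31 to 0.30, adjusted p = 0.979) and 0.10 with shMPZL3 #2 (interval -0.20 to 0.41, adjusted p = 0.677). The span of OVOL2 overlaps SNX5 on its own strand and MGME1 on the other, with 11716 and 6433 counts against 2518 for OVOL2. Overlap was taken over whole gene spans, introns included. Whether counted exons are shared was not examined, so the OVOL2 values remain uncertain.

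**Figure D3:**
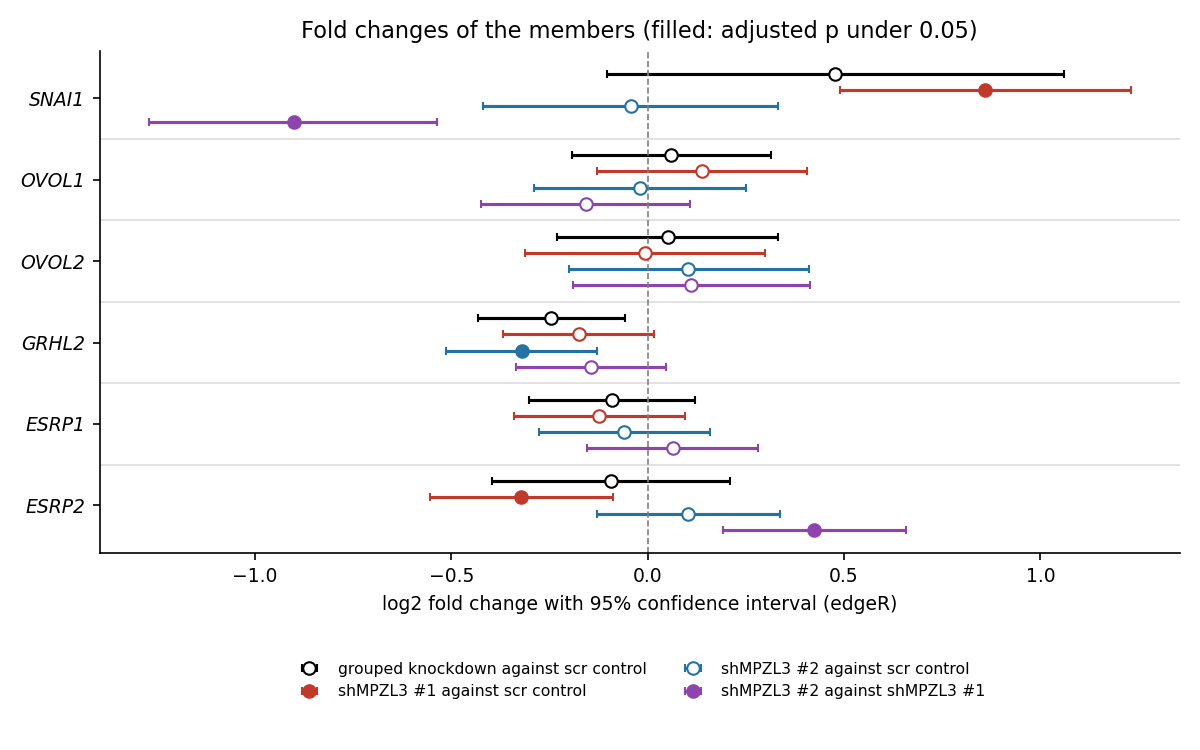
log2 fold changes with 95% confidence intervals from edgeR for the 6 members tested, in 4 comparisons (colours). Filled points have an adjusted p under 0.05: SNAI1 at 0.86 and ESRP2 at -0.32 with shMPZL3 #1, GRHL2 at -0.32 with shMPZL3 #2, and SNAI1 at -0.90 and ESRP2 at 0.43 between the hairpins.

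Classical readouts of these regulators were followed next, with E-cadherin and N-cadherin as the junction proteins exchanged in EMT and vimentin as the mesenchymal intermediate filament. CDH1 was at 255 ± 11.9 CPM in scr control (SD, n = 3), against 339 ± 13.3 for shMPZL3 #1 and 291 ± 16.5 for shMPZL3 #2, with all 6 knockdown libraries above scr control. It rose with shMPZL3 #1 (log2 fold change 0.41, SE 0.0909, edgeR adjusted p = 0.00256), in the same libraries in which SNAI1 was high, and was at 0.19 with shMPZL3 #2 (adjusted p = 0.177). Over all 6 knockdown libraries the log2 fold change of CDH1 was 0.30 (edgeR adjusted p = 0.0573). Under 9 other settings its grouped adjusted p ran from 0.0103 to 0.108, with a call in 4, DESeq2 (0.0254) among them. VIM rose with both hairpins, from 58.8 ± 15.3 CPM to 233 ± 50.4 (log2 fold change 1.99, adjusted p = 2.69e-06) and 129 ± 18.2 (1.13, adjusted p = 0.000354). CDH2 was at 22.6 ± 1.34 CPM in scr control, 21.1 ± 4.16 with shMPZL3 #1 (log2 fold change -0.10, adjusted p = 0.614) and 30 ± 1.53 with shMPZL3 #2 (0.41, adjusted p = 0.0558, and between 0.0185 and 0.0585 under 8 other settings).

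In all, 9 lists of related genes place the members within their pathway. In the grouped comparison, 3 of 14 tested genes of the list of other EMT transcription factors rose and 1 fell, and 4 of 15 other epithelial transcription factors rose and 0 fell, with median log2 fold changes of 0.31 and 0.25 against 0.02 over all genes tested. Of all genes tested in that comparison, 9.36% rose and 6.4% fell, and the counts of the lists below are to be read against these shares. The list of other EMT transcription factors was not divided by whether each member promotes or opposes EMT. SOX9 rose from 13.7 ± 0.198 CPM in scr control to 47.4 ± 8.65 and 24.2 ± 2.05 with the hairpins (grouped log2 fold change 1.38, edgeR adjusted p = 0.00632), and FOXC1 from 51.0 ± 8.23 to 95.9 ± 11.8 and 92.2 ± 7.03 (0.88, adjusted p = 0.000759). SOX4 rose by 0.55 (adjusted p = 0.0226), and HMGA2, a chromatin protein that promotes EMT, fell from 156 ± 3.06 CPM to 97.6 ± 21.2 and 72.0 ± 7.56 (-0.88, adjusted p = 0.00341). Of the epithelial factors, ELF3 rose from 117 ± 13.0 CPM to 198 ± 31.3 and 175 ± 19.4 (0.67, adjusted p = 0.00468), GRHL1, a paralog of GRHL2, from 8.16 ± 0.111 to 11.7 ± 0.875 and 11.7 ± 0.527 (0.52, adjusted p = 0.0175), and KLF4 by 0.83 (adjusted p = 0.048). TWIST2, TCF4, FOXC2, PRRX1 and LEF1 were at 2 counts or fewer in every library.

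Among EMT-linked splicing factors, 0 of 13 rose and 6 fell, with a median log2 fold change of -0.21. The list was not divided by the cell state that each factor favours. SRSF1 fell from 115 ± 18.4 CPM to 59.1 ± 13.8 and 75.7 ± 18.5 (-0.77, edgeR adjusted p = 0.0138), SRSF3 by 0.50 (adjusted p = 0.0219) and MBNL1 by 0.41 (adjusted p = 0.0224). Of 14 genes with ESRP-dependent exons, CD44 rose (0.52, adjusted p = 0.0453) and FGFR2 fell from 130 ± 10.0 CPM to 90.6 ± 3.11 and 89.5 ± 3.29 (-0.53, adjusted p = 0.00175). Gene counts do not show which exons were used, so splicing itself was not measured. Of 17 tested partners and turnover genes of SNAI1, 0 rose and 2 fell, the Polycomb subunit SUZ12 (-0.55, adjusted p = 0.0064) and the deacetylase HDAC1 (-0.33, adjusted p = 0.0351).

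Of 18 epithelial genes known as targets of these regulators, 2 rose, a share near the 9.36% of all genes, and 0 fell: SPINT1, a protease inhibitor of epithelia, from 133 ± 1.10 CPM to 258 ± 30.7 and 225 ± 18.9 (0.86, edgeR adjusted p = 0.00061), and ERBB3 (0.28, adjusted p = 0.0451). By DESeq2, 5 of these targets were called higher and 1 lower, where 2047 of all genes were higher and 1498 lower. Of 12 tested mesenchymal markers, 7 rose and 0 fell, with a median log2 fold change of 1.01. Part of that list, such as COL1A1, is shared with the fibroblast markers whose summed level is given above, and their part in its rise was not tested. FN1, which encodes fibronectin, rose from 43.5 ± 10.4 CPM to 159 ± 68.0 and 440 ± 132 (2.78, adjusted p = 0.00312), and ACTA2 from 13.9 ± 6.57 CPM to 129 ± 24.6 with shMPZL3 #1 but 22.6 ± 3.28 with shMPZL3 #2 (2.45, adjusted p = 0.032, and 2.06 with an adjusted p of 0.117 by limma-voom). Of 19 upstream EMT signals, 3 rose and 2 fell: the ligand TGFB2 rose from 9.58 ± 1.91 CPM to 21.7 ± 4.35 and 20.6 ± 2.52 (1.13, adjusted p = 0.00124), with TGFBR1 at 0.60 (adjusted p = 0.0232) and MET at 0.53 (adjusted p = 0.0116), while EGFR was at -0.57 (adjusted p = 0.00593) and TGFBR2 at -0.49 (adjusted p = 0.0121).

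By hairpin, 16.8% of all genes rose and 15.3% fell with shMPZL3 #1, against 9.36% and 5.8% with shMPZL3 #2. The mesenchymal markers rose in 9 of 12 with shMPZL3 #1 and 6 of 12 with shMPZL3 #2, and the epithelial targets in 6 and 5 of 18. In this edgeR fit 0 were called lower in either list, although the lowest mesenchymal log2 fold change with shMPZL3 #2 was -1.78. By DESeq2, 7 mesenchymal markers were higher and 2 lower with shMPZL3 #2, and 5 epithelial targets were higher and 1 lower. Over all genes DESeq2 called 1725 higher and 1249 lower with that hairpin. Of the splicing factors, 1 of 13 rose and 8 fell with shMPZL3 #1, and 0 rose and 3 fell with shMPZL3 #2. Of the 17 SNAI1 partners, 1 rose and 7 fell with shMPZL3 #1, and 1 rose and 1 fell with shMPZL3 #2. Of the 14 other EMT factors, 5 rose and 1 fell with shMPZL3 #1, 3 rose and 3 fell with shMPZL3 #2, and directly between the hairpins 1 was higher and 7 were lower for shMPZL3 #2. In that direct comparison 7.56% of all genes were higher and 7.56% lower. Higher and lower counts there were 3 and 5 for mesenchymal markers, 3 and 1 for other epithelial factors and 1 and 2 for epithelial targets. They were 2 and 0 for splicing factors, 3 and 1 for SNAI1 partners, 0 and 2 for genes with ESRP-dependent exons and 3 and 4 for upstream signals. The 15 other epithelial factors rose in 7 and fell in 2 with shMPZL3 #1, and rose in 4 and fell in 0 with shMPZL3 #2. Of the 14 genes with ESRP-dependent exons, 3 rose and 1 fell with shMPZL3 #1 and 1 rose and 1 fell with shMPZL3 #2, and of the 19 upstream signals 4 rose and 3 fell, and 5 rose and 4 fell. Of the 24 list genes that the naming rule took in the grouped comparison, 10 kept their call whichever library was left out, among them SOX9, FOXC1, HMGA2, FGFR2, SUZ12, SPINT1, FN1, TGFB2 and EGFR. The other 14 lost it without scr control replicate 1, 12 of the 24 without scr control replicate 2 and 11 without scr control replicate 3. Leaving out a knockdown library ended 1 to 5 of the 24 calls. In the grouped comparison the splicing factors that fell numbered 0 without scr control replicate 1 or 2, the epithelial factors that rose 0 without scr control replicate 1, and the mesenchymal markers that rose 4 without scr control replicate 1 or 2. Over all genes, those that fell went from 1083 to 172 and 276 without scr control replicates 1 and 2, and those that rose from 1584 to 453 and 686. The list counts are to be read against that loss of calls over all genes. By hairpin, the epithelial targets that rose with shMPZL3 #1 numbered as few as 2, and the splicing factors that fell with shMPZL3 #2 as few as 0, when a library was left out. Over all genes, those that rose with shMPZL3 #1 then numbered as few as 1994 against 2838 in the main fit. Those that fell with shMPZL3 #2 numbered as few as 354 against 982.

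**Figure D4:**
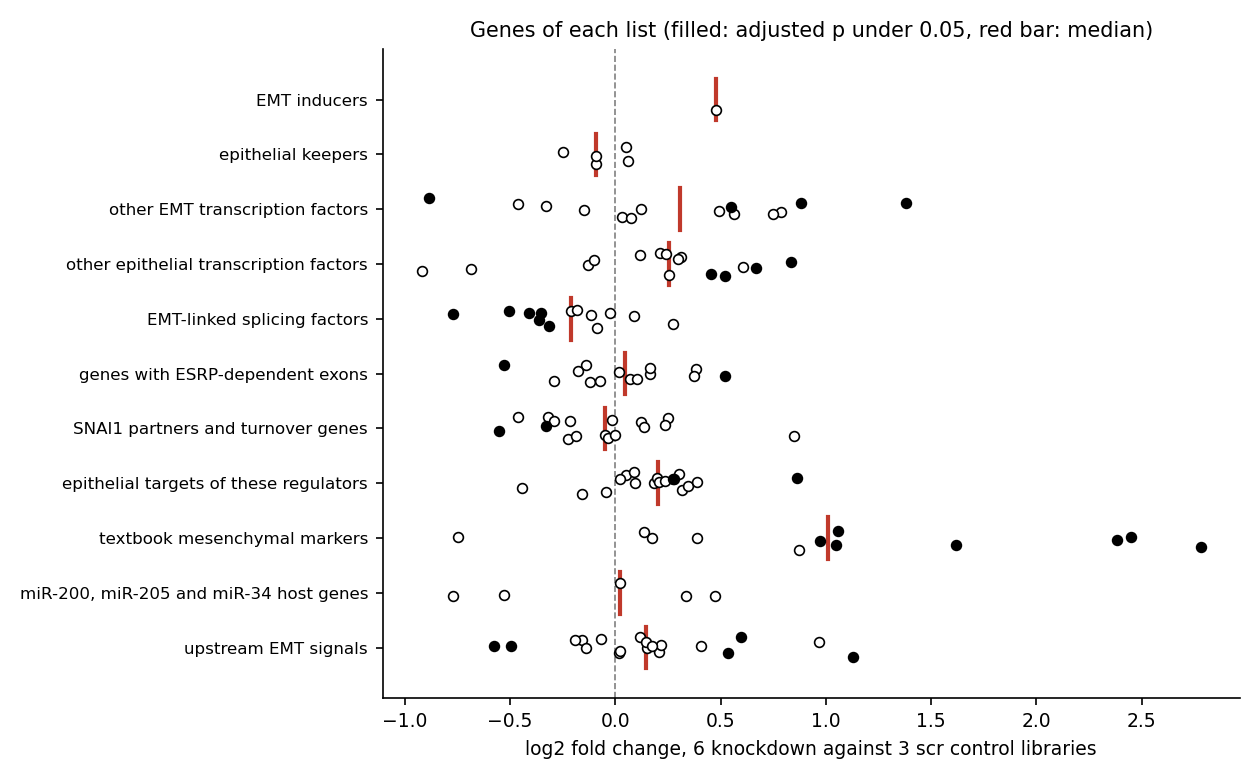
log2 fold change of each tested gene, 6 knockdown against 3 scr control libraries, by list (1 point per gene, filled where the adjusted p is under 0.05, red bars for the list medians). The mesenchymal markers have the highest median, 1.01, and the splicing factors a median of -0.21, against 0.02 over all genes tested.

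The genes whose log2 CPM followed each member most closely over the 9 libraries were named among 11833 well-expressed protein-coding genes, as a description of libraries that share their groups and depth. These genes were picked for the highest of 11833 correlations, so the selection alone raises their r values. For SNAI1 they included PARD3 (Pearson r = 0.978), and they were for GRHL2 PEG10 (0.988) and WDR91 (0.985), and for ESRP2 LMCD1 (0.982) and ANKRD11 (0.971). For ESRP1 they were PRRC1 (0.966) and NFYB (0.945), for OVOL2 FIZ1 (0.96) and PIAS4 (0.948), and for OVOL1 C22orf23 (0.917) and AL135905.2 (0.886). Among the members themselves, SNAI1 and ESRP2 had r = -0.789 over the 9 libraries, the most extreme value of any pair. The other pairs ran from -0.641 to 0.549. Both genes differ in the same shMPZL3 #1 libraries, so this value restates those group differences.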

How the data were processed

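OVCAR4 libraries (3 scr control, 3 shMPZL3 #1, 3 shMPZL3 #2) were poly-A selected and non-directional. The deposited values are raw counts per gene, which the authors made without normalization. The submitters' processing notes name HISAT2 2.0.5, featureCounts 1.5.0-p3 and hg38. The annotation is not given in the sources used here, and gene identifiers and positions are those of GENCODE 29. The deposited table also holds gene lengths. It held 0 unused columns of per-sample values.

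Members and lists were chosen with earlier results of these data known. Groups came from the sample titles. Genes passing filterByExpr were fitted with edgeR 4.0.16 (R 4.3.3; TMM; quasi-likelihood test, two-sided; Benjamini-Hochberg over 16928 genes; called at adjusted p under 0.05), with the 6 knockdown libraries as 1 condition, as the study grouped them, or as 3 groups. Single members were also compared by exact permutation tests of log2 CPM (prior count 2). With 3 against 3 libraries such an exact test cannot go below p = 0.1. Alternatives were RLE and upper-quartile scaling, 2 other filters, DESeq2 1.42.0, limma-voom 3.58.1, protein-coding genes only, a replicate block and leaving out each library. Intervals are at 95% and the counting floor at 3 counts.

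Genes outside the members were named by rule: MPZL3, CDH1, VIM and CDH2, at most 3 called genes in each direction per list in the grouped comparison, the 2 most similar genes per member among protein-coding genes averaging log2 CPM 1 or more, and genes overlapping a member. The miRNA loci were named for their printed sequences. Some genes that the rule takes are not reported here. All 7 miRNAs searched matched the RefSeq table. 3′ UTRs were those of the basic GENCODE 29 transcript with the longest coding sequence. Figures used Python 3.11.15 and matplotlib 3.10.9.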

Additional observations from a re-analysis of the deposited data

Results flagged for a closer look

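SNAI1 and ESRP2 differed between the hairpins by the edgeR test of that difference. SNAI1 was lower with shMPZL3 #2 than with shMPZL3 #1 by a log2 difference of -0.90, with means of 8.08 ± 1.57 and 15.0 ± 2.46 CPM (SD, n = 3). ESRP2 was higher with shMPZL3 #2 by 0.43, with means of 55.6 ± 7.86 and 41.5 ± 1.99 CPM. MPZL3 was at 15.2 ± 2.90 CPM with shMPZL3 #2 and 6.24 ± 0.628 with shMPZL3 #1, so the hairpins differ in the depth of knockdown as well as in sequence, and these cannot be told apart here.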

How the results depend on the processing

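The calls of SNAI1 with shMPZL3 #1 and between the hairpins held under every alternative run, while those of GRHL2 and ESRP2 lie near the threshold. With shMPZL3 #1 the members called numbered 2, and 1 with upper-quartile normalization, with no filter and with at least 10 counts in every library, and 1 to 2 with a library left out. With shMPZL3 #2 they numbered 1, and 0 with no filter, and 0 to 1 with a library left out. Between the hairpins they numbered 2, and 1 to 2 with a library left out. In the grouped comparison they numbered 0, and 1 with DESeq2 and when the hairpins were averaged in the 3-group design, and 0 with any library left out. Over all genes, the 2667 grouped calls of the main fit became 3545 with DESeq2 and 4677 with the hairpins averaged. Calls over all genes with shMPZL3 #1 went from 5424 to 5424 with upper-quartile normalization, 5298 with no filter and 5192 with at least 10 counts. With shMPZL3 #2 and no filter they went from 2567 to 2839. The cause of these changes was not tested.

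Log2 fold changes that changed sign were all uncalled. OVOL2 with shMPZL3 #1 came to 0.026 with upper-quartile normalization, 0.031 with at least 10 counts in every library and 0.022 with protein-coding genes only, and OVOL1 with shMPZL3 #2 to 0.00058 with at least 10 counts. With a library left out, OVOL2 with shMPZL3 #1 ranged from -0.075 to 0.075 and grouped from -0.010 to 0.121, OVOL1 grouped from -0.0073 to 0.098 and with shMPZL3 #2 from -0.087 to 0.032, SNAI1 with shMPZL3 #2 from -0.207 to 0.083, ESRP1 with shMPZL3 #2 from -0.112 to 0.0054 and between the hairpins from -0.024 to 0.129, and CDH2 with shMPZL3 #1 from -0.235 to 0.030.

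Over all genes, the 2667 grouped calls became 4677 when the hairpins were averaged in the 3-group design and 625, 962 and 1238 without scr control replicates 1, 2 and 3. The 2567 calls with shMPZL3 #2 became 1366 without its replicate 3, 1398 without scr control replicate 1 and 1579 without scr control replicate 2, and the 2559 between the hairpins became 1469, 1641 and 1581 without shMPZL3 #2 replicate 3, shMPZL3 #2 replicate 1 and shMPZL3 #1 replicate 3. The sample titles give a replicate number and do not say whether same-numbered libraries were prepared together. Correlations of their deviations ran from -0.0014 to 0.218, the highest between the hairpins in replicate 2. A replicate block took calls over all genes from 5424 to 6355 with shMPZL3 #1 and 2567 to 3680 with shMPZL3 #2. Between the hairpins they went from 2559 to 3823, and in the grouped comparison from 2667 to 2424. With the replicate block the members called numbered 0 grouped, 2 with shMPZL3 #1, 1 with shMPZL3 #2 and 2 between the hairpins, KLF4 (log2 fold change 0.86, adjusted p = 0.05) and ERBB3 (0.28, adjusted p = 0.0565) were no longer called, CDH2 with shMPZL3 #2 was (0.41, adjusted p = 0.0185), and genes called lower with shMPZL3 #2 went from 982 to 1597 and higher between the hairpins from 1279 to 2015. Of the named list genes in the grouped comparison, limma-voom also ended the calls of ACTA2 (adjusted p = 0.117), CD44 (0.0698), KLF4 (0.0744) and ERBB3 (0.052), and fitting with no filter those of GRHL1 (0.0536), HDAC1 (0.0652) and ERBB3 (0.155). TPM in place of CPM per kilobase kept the order of the members in each group. Both measures divide the same counts by the same gene lengths, so the order within a library could not change. At counts of 4 or fewer, the depth limits any statement on SNAI2, ZEB1, ZEB2 and TWIST1.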
